A study of Solanum lycopersicum with 12 samples.

Results

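Roots of salt-treated tomato seedlings were compared between a salt-tolerant genotype, LA2711, and a salt-sensitive genotype, ZS-5, after 6 hr of treatment. The members were chosen by their titles, as the arrays of both genotypes at 6 hr, and are 4 of the 12 arrays of the series. Each array held RNA of a salt-treated plant and RNA of a control plant of the same genotype, hybridised together on a 2-colour array of cDNA clones from subtracted libraries. LA2711 has 2 arrays at 6 hr, with the treated RNA in Cy5 on one and in Cy3 on the other, and ZS-5 has 2 arrays with the same layout. The study describes the swap as a duplicate of the hybridisation, so each pair was counted as 1 replicate, although the labels do not say whether its arrays shared an RNA extract. Neither the salt concentration nor the age of the seedlings is given with the arrays.

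Salt confronts a root with an osmotic deficit and with sodium that competes with potassium. Plants are known to answer with ethylene and jasmonate signalling, with stress-responsive transcription factors, with defence-type proteins and with changes in carbon, nitrogen and redox metabolism. Tolerant and sensitive genotypes can differ in which of these responses they mount and in how long they keep them up.

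Every value is a log2 ratio of the treated and control RNA of an array, here called the salt ratio. No source used here says which RNA is the numerator, so positive and negative are opposite sides of the response and neither is called an induction. The LA2711 minus ZS-5 difference compares arrays with the treated RNA in the same dye. It can lie in the treated or in the control RNA of either genotype, because the files hold ratios without the signals behind them. For the same reason, neither the depth nor the root identity of the samples can be checked by the level of marker genes. The number of arrays limits the precision.

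Adjacent sets of 3 spots were averaged to 1 clone, and 3215 of the 3456 clones were measured on all 4 arrays. A gene name is annotated for 79 clones of 38 genes, all of them measured, and several clones can share a gene. Before centring, the array medians were -0.69 and -1.26 in LA2711 and -0.58 and -1.13 in ZS-5, the arrays with treated RNA in Cy5 first. Each array was centred on its median, which added 0.12 to every LA2711 minus ZS-5 difference. Values are centred unless called uncentred.

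The gene that differed most among the annotated ones was ADH2, an alcohol dehydrogenase that makes ethanol in fermentation when oxygen is short. Its salt ratio was 0.83 on the LA2711 array with treated RNA in Cy5 and 1.49 on that with treated RNA in Cy3, against 5.44 and 5.46 on the matching ZS-5 arrays. Both ZS-5 values lay far above both LA2711 values, on the same side of 0. The LA2711 minus ZS-5 difference was -4.61 and -3.98 in the 2 dye orientations, with a mean of -4.29 ± 0.45 (SD, n = 2 dye orientations), which is a 19.6-fold smaller ratio in LA2711. Uncentred, the ADH2 salt ratio was 0.18 in LA2711 and 4.60 in ZS-5, so that without centring the LA2711 value was close to 0 and the ZS-5 value was not.

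Because 6 hr has 1 replicate per genotype, the difference was tested in a limma fit over the 6 conditions of the series (2 genotypes at 30 min, 2 hr and 6 hr, each dye-swap pair averaged). The fit gives 6 hr a genotype difference of its own and takes the spread from how the genotype difference changed between 30 min and 2 hr, with 1 residual degree of freedom moderated over clones. It assumes that the 6 hr values vary like the earlier ones. ADH2 differed by -4.29 ± 0.63 (SE, limma adjusted p = 2.23e-08). Without centring the difference was -4.41, but its adjusted p in limma was 0.939. It was also not called after quantile normalisation, with a difference of -4.55, nor with all 12 arrays scaled to a common median absolute deviation, with a difference of -1.83. With only the 6 hr arrays scaled, a setting not run in limma, the difference was -3.86. With 1 genotype difference fitted to all times it was -2.12 (limma adjusted p = 0.482). In the other limma fits run, the adjusted p ranged from 6.49e-10 to 9.66e-04, the highest with the 4 arrays of 6 hr as separate samples. The standard error was the same 0.63 for every clone, because limma estimated 1 spread shared by all clones. Without centring this was no longer so (prior degrees of freedom 3.56).

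In all, 16 of 3018 clones measured throughout the series (0.530%) were called by limma with an adjusted p under 0.05, and all 16 had the lower salt ratio in LA2711. ADH2 is the 1 annotated clone among them. The count was 0 without centring, where 66 clones had an unadjusted limma p under 0.05. At an unadjusted p under 0.05 the centred fit had 76 clones. With replicate 2 of both genotypes left out at 6 hr (the arrays with treated RNA in Cy3), and the earlier times kept whole, 27 clones were called, 25 lower and 2 higher in LA2711.

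The 16 clones, of which all but ADH2 carry no gene name, fell into 3 patterns that were set out after their values were seen. Whether any of them share a transcript was not tested, so the 16 clones need not be 16 genes. In 10 clones, ADH2 included, the salt ratio was positive in both genotypes, between 0.67 and 2.27 on the LA2711 arrays and between 3.95 and 5.46 on the ZS-5 arrays. In these clones LA2711 lay nearer to 0. In 5 clones it was between -2.47 and -1.26 on the LA2711 arrays and between 0.78 and 3.02 on the ZS-5 arrays, so that the genotypes lay on opposite sides of 0. In the 1 remaining clone it was -5.12 and -5.43 on the LA2711 arrays against -1.62 and -2.28 on the ZS-5 arrays, and LA2711 lay farther from 0.

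**Figure D1:**
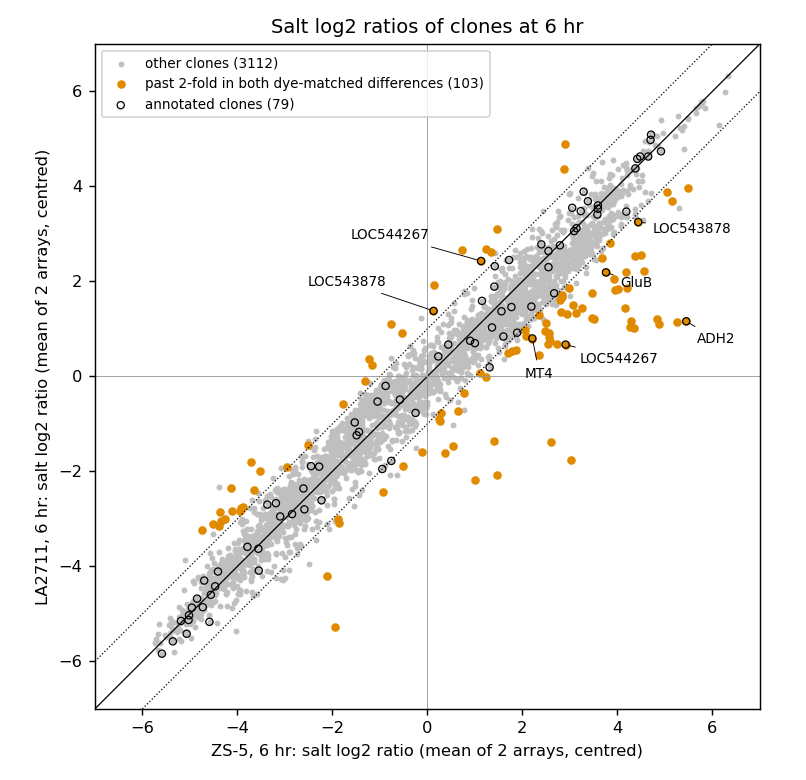
Each point is a clone, with its centred salt log2 ratio in ZS-5 on the x axis and in LA2711 on the y axis, both means of 2 arrays at 6 hr. The solid line marks equal ratios and the dotted lines a 2-fold difference of the means. The 103 clones past 2-fold in both dye orientations are orange and the 79 annotated clones are circled. ADH2, at 5.45 in ZS-5 and 1.16 in LA2711, lies far below the line.

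The unnamed clone with the lowest difference (spots 4417 to 4419) had salt ratios of -2.12 and -1.42 in LA2711, against 3.02 and 3.01 in ZS-5. It differed by -4.79 ± 0.63 (SE, limma adjusted p = 1.66e-10), and uncentred it lay at -2.74 in LA2711 and at 2.16 in ZS-5. The next (spots 9931 to 9933) had 0.93 and 1.38 in LA2711, against 5.11 and 5.39 in ZS-5, values close to those of ADH2. In the other direction, the clone of spots 7684 to 7686 had 5.15 and 4.65 in LA2711, against 2.92 and 2.89 in ZS-5. It was not called by limma (difference 2.00, limma adjusted p = 0.206).

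As a description of these arrays, clones were also counted whose difference was past 2-fold on the same side in both dye orientations. These were 103 of 3215 clones (3.20%), with the lower salt ratio in LA2711 in 72 (2.24%) and the higher in 31 (0.964%). Without centring they were 146 (4.54%), of which 121 (3.76%) were lower and 25 (0.778%) higher in LA2711. After quantile normalisation they were 51, with 35 lower and 16 higher in LA2711, and with all 12 arrays scaled to a common median absolute deviation 17, with 15 lower and 2 higher. With only the 6 hr arrays scaled to their common median absolute deviation, added after seeing the data, they were 119, with 86 lower and 33 higher. The share of lower ones was 69.9% with centring and 82.9% without it. All 19 clones past 4-fold in both orientations, and all 9 past 8-fold, were lower in LA2711. Only 1 clone was past 2-fold with opposite signs in the 2 orientations.

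Relative to 0, LA2711 was the genotype nearer to 0 in 70 of the 103 clones and the one farther from 0 in 16, and in 17 the genotypes lay on opposite sides. Without centring these counts were 84, 30 and 32 of 146. Of the 72 lower clones 52 were positive in both genotypes, and of the 31 higher clones 18 were negative in both. Past 2-fold from 0 on both ZS-5 arrays and within 2-fold on both LA2711 arrays were 106 of 3215 clones (3.30%), and the converse was found for 29 (0.902%). Uncentred, these counts were 103 and 23. Centring changed the sides, since 43 of the 106 clones were positive and 92 of the uncentred 103. The ZS-5 arrays had the wider spread over clones, with median absolute deviations of 3.17 and 3.14 against 2.82 and 2.73 in LA2711. The counts relative to 0 were not made on scaled arrays.

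**Figure D2:**
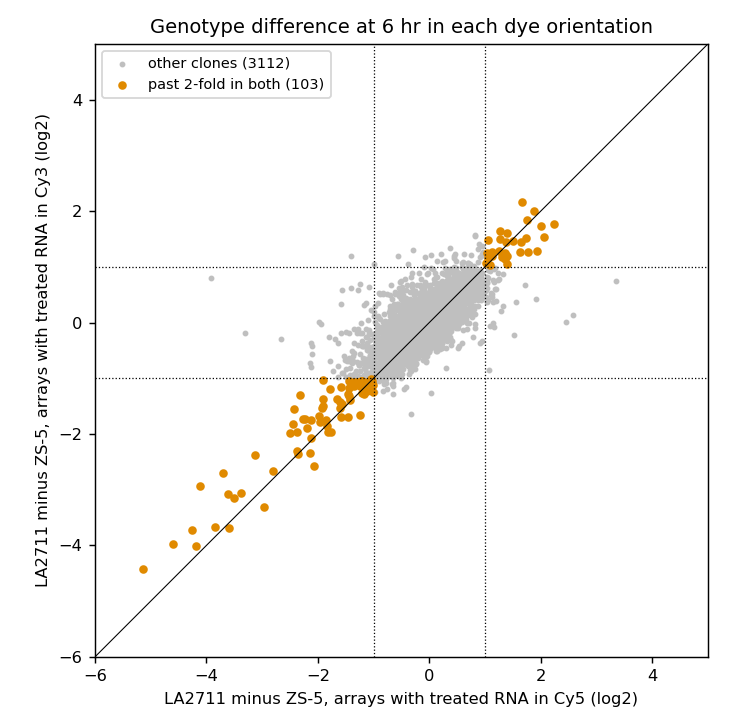
Each point is a clone, with its LA2711 minus ZS-5 difference with Cy5-labelled treated RNA on the x axis and with Cy3-labelled treated RNA on the y axis, in log2 units after centring. The dotted lines mark 2-fold, and the 103 orange clones are past them on the same side in both orientations. Differences beyond -2 lie along the line of equality, some of them well off it, such as that of a clone at -4.11 with Cy5 and -2.94 with Cy3.

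These clones were a small part of a largely shared response. Past 2-fold on the same side on all 4 arrays were 2084 of 3215 clones (64.8%), 986 positive and 1098 negative, or 1897 clones uncentred, 494 positive and 1403 negative. The differences had a median of -0.04, with 69.2% of them within 0.5 of 0. The SD of the salt ratios over clones in LA2711 was 0.938 times that in ZS-5 (0.947 where Cy5 marked the treated RNA and 0.931 where Cy3 did). This ratio was 0.985 after quantile normalisation and 1.08 with all 12 arrays scaled, which turned its direction. Clones were grouped by their mean salt ratio of both genotypes. Uncentred they were grouped anew, so that an uncentred group holds partly other clones. At 2 to 4 the median difference was -0.37 in 648 clones (uncentred -0.33 in 314), with LA2711 nearer to 0. Above 4 it was -0.02 in 70 (-0.16 in 22), and at 0 to 2 it was -0.17 in 856 (-0.43 in 923). At -2 to 0 it was 0.19 in 768 (-0.10 in 755), and at -4 to -2 it was 0.12 in 615 (0.04 in 671). Below -4 it was 0.06 in 258 (-0.05 in 530). The sign thus differed between the settings below -4 and at -2 to 0, in groups that are not the same clones. The 2 dye orientations' differences correlated over clones with r = 0.78, a description, since the clones share the same 4 arrays and RNAs.

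Among the 79 annotated clones, 7 were past 2-fold in both dye orientations, 5 with the lower salt ratio in LA2711 and 2 with the higher (11 uncentred, 9 lower and 2 higher). This is 8.86% of them, against 3.20% of all clones. The median difference of the 79 was -0.02, against -0.04 over all clones. The 7 clones belong to 5 genes: ADH2, GluB, LOC543878, LOC544267 and MT4. Of these clones only that of ADH2 was called by limma.

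**Figure D3:**
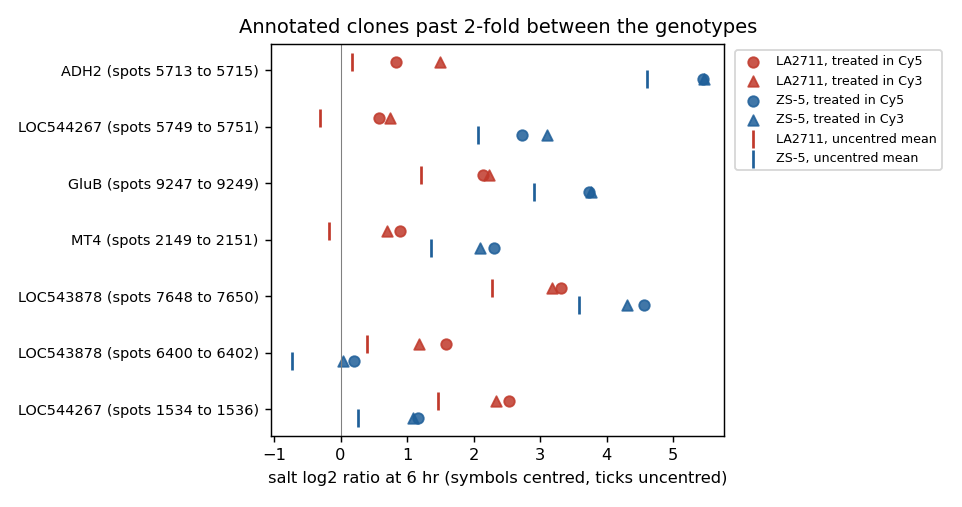
Salt log2 ratios at 6 hr of the 7 annotated clones past 2-fold, with LA2711 above ZS-5 in each row. Circles are arrays with treated RNA in Cy5, triangles arrays with treated RNA in Cy3, and ticks the uncentred means. ADH2 is at the top and LOC544267 (spots 1534 to 1536), where LA2711 is the higher, at the bottom. The clones were chosen for differences past 2-fold in both orientations, which nearly fixes that the values of the genotypes do not overlap.

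Defence proteins held 3 of these 7 clones. GluB encodes a beta-1,3-glucanase, an enzyme that cleaves the glucans of fungal walls and of callose. Its clone of spots 9247 to 9249 had salt ratios of 2.14 and 2.23 in LA2711, against 3.74 and 3.77 in ZS-5. The difference was -1.57 ± 0.04 (SD, n = 2 dye orientations) without a call (limma adjusted p = 0.836). The other GluB clone (spots 4516 to 4518) had the same order, 1.44 and 1.51 in LA2711 against 2.31 and 2.07 in ZS-5, and was not past 2-fold.

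LOC543878, whose RefSeq synonym is PR5, belongs to the thaumatin-like pathogenesis-related proteins. Its 3 clones did not go the same way. The clone of spots 7648 to 7650 had 3.32 and 3.18 in LA2711, against 4.56 and 4.31 in ZS-5, a difference of -1.19, which was -0.69 with the 6 hr arrays scaled to a common spread. That of spots 9973 to 9975 had 3.34 and 3.59 in LA2711, against 4.08 and 4.30 in ZS-5. The clone of spots 6400 to 6402 had the opposite order, 1.58 and 1.18 in LA2711 against 0.21 and 0.04 in ZS-5, a difference of 1.25. NP24-I, an osmotin-like protein, was negative on all 4 arrays, and its difference was 0.38. The defence list thus held 2 lower and 1 higher clone past 2-fold of 6, with a median difference of -0.72 (-0.84 uncentred), against 3.20% past 2-fold and a median of -0.04 over all clones.

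LOC544267, to which neither the annotation nor RefSeq gives a name, had the second largest difference of an annotated clone. Its clone of spots 5749 to 5751 had salt ratios of 0.58 and 0.75 in LA2711, against 2.72 and 3.10 in ZS-5. The difference of -2.25 ± 0.63 (SE) had a limma adjusted p of 0.0673 and was not called. The clone of spots 1534 to 1536 went the other way, with 2.53 and 2.34 in LA2711 against 1.17 and 1.09 in ZS-5, and that of spots 616 to 618 had 2.56 and 2.08 in LA2711 against 1.77 and 1.07 in ZS-5. The differences of the 3 clones therefore ran from -2.25 to 1.31 (SD between clones 1.94), and no single difference describes this gene.

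Metallothioneins are small cysteine-rich proteins that bind metal ions. MT4 had 0.89 and 0.70 in LA2711, against 2.31 and 2.10 in ZS-5, a difference of -1.41 ± 0.02 (SD, n = 2 dye orientations) that was not called by limma. Uncentred, it lay at -0.18 in LA2711 and at 1.36 in ZS-5. The 3 clones of MT2 differed by 0.15 to 0.72, the largest being that of spots 7225 to 7227, with 2.23 and 2.67 in LA2711 against 1.49 and 1.96 in ZS-5. The other MT2 clones (spots 8869 to 8871 and 9751 to 9753) were negative in both genotypes. None of the MT2 clones was past 2-fold.

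LOC543916, PSBR, NAC1 and TPX2 came close to 2-fold, each with a clone past it only in 1 orientation or only without centring. LOC543916, with the RefSeq synonym XTH9 of the xyloglucan endotransglucosylases that remodel cell walls, had 0.08 and 0.30 in LA2711 against 1.07 and 1.55 in ZS-5. PSBR, a photosystem II protein, had -1.72 and -1.83 in LA2711 against -0.59 and -0.92 in ZS-5 in its clone of spots 3649 to 3651, and -1.78 and -2.12 against -0.74 and -1.15 in that of spots 2320 to 2322. Here LA2711 lay farther from 0, while the third PSBR clone (spots 1453 to 1455) differed by 0.04. NAC1, a NAC-domain transcription factor, had 1.18 and 0.66 in LA2711 against 2.08 and 1.70 in ZS-5 in its clone of spots 3769 to 3771. All other NAC1 clones were negative in both genotypes, so that this clone lay on the opposite side of 0 from them. TPX2, a peroxidase, had 1.73 and 1.76 in LA2711 against 2.52 and 2.82 in ZS-5. The other gene of peroxide handling, the catalase gene cat1, differed by -0.20. LOC778302, which has no name, was not past 2-fold in either orientation and had 0.91 and 0.77 in LA2711 against 1.54 and 1.67 in ZS-5 in its clone of spots 4768 to 4770.

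**Figure D4:**
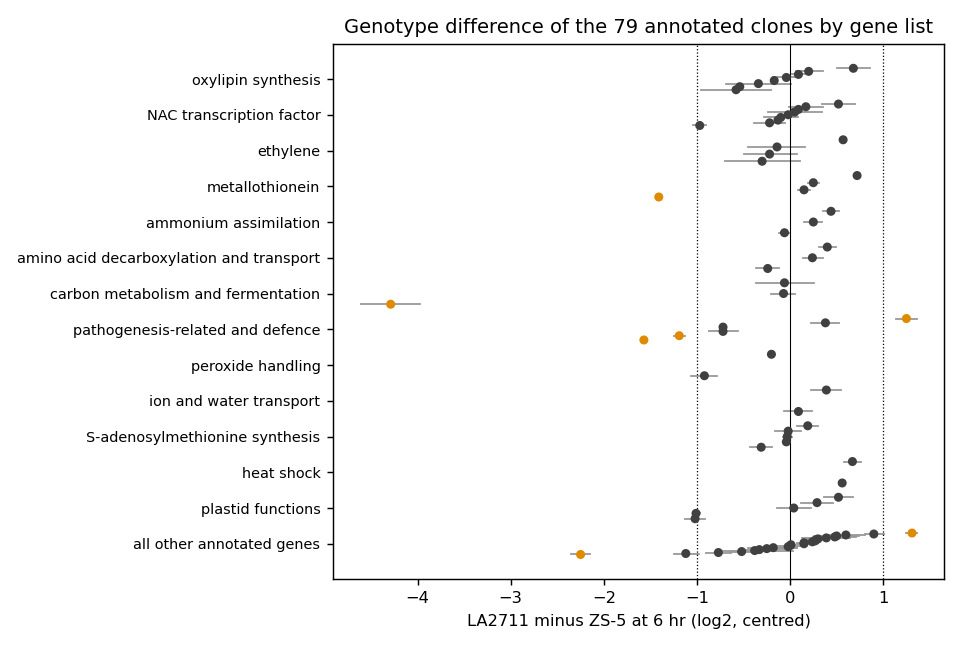
LA2711 minus ZS-5 difference at 6 hr of the 79 annotated clones, grouped by gene list. Points are means of the 2 dye orientations, grey bars join the orientations, dotted lines mark 2-fold, and the 7 clones past it in both orientations are orange. Most lists lie between the dotted lines, and carbon metabolism holds ADH2 at -4.29.

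Of the 5 annotated genes with the highest mean salt ratio of both genotypes, ADH2 and LOC543878 (spots 7648 to 7650) were past 2-fold between them and LOC778326, GS2 and AOS were not. Of the 5 with the lowest, none was. All 12 clones of LOC778326, which carries no name, were positive, with means of 1.89 to 5.09 in LA2711 and 1.41 to 4.92 in ZS-5, and their differences ran from -0.18 to 0.60 with a median of 0.22. NAC1 had 9 clones, of which 7 differed by less than 0.5. The lowest of them (spots 3064 to 3066) had -5.77 and -5.38 in LA2711 against -5.38 and -5.34 in ZS-5. LOC543942, with no name, had -5.91 and -5.77 in LA2711 against -5.49 and -5.69 in ZS-5.

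AOS, the allene oxide synthase of jasmonate synthesis, had 7 clones with differences of -0.58 to 0.20, although their salt ratios lay on both sides of 0. The clone of spots 1540 to 1542 had 3.68 and 3.13 in LA2711 against 3.84 and 3.32 in ZS-5, and that of spots 1384 to 1386 had -5.43 and -5.40 in LA2711 against -4.74 and -5.40 in ZS-5. DES, a divinyl ether synthase of the same oxylipin pathway, had 0.41 and -0.81 in LA2711 against -0.45 and -1.31 in ZS-5. Its LA2711 value was the higher in both dye orientations, by 0.86 and 0.50, although the genotypes overlapped across orientations. The 8 clones of the oxylipin list had a median difference of -0.11. None was past 2-fold, but with 3.20% of all clones past it a count of 0 in so few clones does not set a list apart, here or in the other short lists.

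The nitrogen genes differed by less than 0.5. GS2, a glutamine synthetase, differed by -0.06 and 0.25 in its 2 clones and gts1, another, by 0.44. AADC1B, an aromatic amino acid decarboxylase, had -4.33 and -4.26 in LA2711 against -4.64 and -4.76 in ZS-5. GAD2, a glutamate decarboxylase, differed by -0.24 and the amino acid permease gene AAP2 by 0.24. The 5 clones of SAM3, an S-adenosylmethionine synthetase, differed by -0.31 to 0.19. No clone of these lists was past 2-fold, against 3.20% of all clones.

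The ethylene, heat shock, transport and plastid lists held no clone past 2-fold either, against 3.20% of all clones, though 2 plastid clones, both of PSBR, were past it uncentred. Of the ethylene genes, ACS7, an aminocyclopropane carboxylate synthase, had -1.96 and -1.81 in LA2711 against -2.53 and -2.37 in ZS-5. The ethylene response factor genes ERF3 and JERF1 differed by -0.22 and by -0.30 and -0.14. Both heat shock genes were negative and nearer to 0 in LA2711, Hsp90-1 by 0.56 and MTSHP, a mitochondrial small heat shock protein, by 0.67. The potassium channel gene LKT1 differed by 0.09 and the tonoplast aquaporin gene TIP by 0.39. In carbon metabolism the beta-amylase gene BMY3 differed by -0.07 and the phosphoenolpyruvate carboxylase kinase gene PPCK1 by -0.06, so that ADH2 was the 1 clone of 3 in its list past 2-fold. Of the plastid genes besides PSBR, the phytoene synthase gene PSY2 differed by 0.52 and the riboflavin synthesis gene ribA by 0.29. Of the genes in no pathway list, TCTP, encoding the translationally controlled tumour protein, differed by 0.24, the homeobox gene VAHOX1 by 0.27, the WRKY factor gene WRKYIId-1 by -0.52 and LOC778219 by -0.38, and none was past 2-fold. The clones of WRKYIId-1 and LOC778219 were not measured on all 12 arrays and were not in the limma fit.

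Whether the 6 hr difference was unlike the earlier ones was tested in the same fit, as 6 hr minus the mean of 30 min and 2 hr. Of 3018 clones 7 were called by limma (0.232%), all with a lower value at 6 hr, and all 7 are among the 16 called at 6 hr. ADH2 was again the 1 annotated clone. At 30 min, 2 hr and 6 hr its salt ratio was 0.12, 2.82 and 1.16 in LA2711, and 0.83, 4.19 and 5.45 in ZS-5. The genotype difference was -0.71, -1.36 and -4.29 at these times, and the 6 hr one differed from the earlier ones by -3.25 ± 0.78 (SE, limma adjusted p = 0.0141). LA2711 thus had its highest ADH2 ratio at 2 hr and ZS-5 at 6 hr. Uncentred, the ADH2 differences were -0.47, -1.72 and -4.41. The ZS-5 array median was 0.01 at 2 hr and -0.85 at 6 hr, that of LA2711 -0.35 and -0.98. In the 10 called clones positive in both genotypes at 6 hr, the ZS-5 median was 3.48 at 2 hr and 4.46 at 6 hr. Uncentred it was 3.48 and 3.61, so that most of this rise came with the centring. The LA2711 median fell either way, from 2.31 to 1.16 centred and from 1.96 to 0.19 uncentred. The count of 7 was 0 without centring, with 29 clones at an unadjusted limma p under 0.05 and 46 with centring.

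The unnamed clone of spots 9931 to 9933 had nearly the same course as ADH2, with -0.01, 2.78 and 1.15 in LA2711, and 0.69, 4.30 and 5.25 in ZS-5 (6 hr minus earlier -3.00 ± 0.78 SE, limma adjusted p = 0.0493). It was not alone in this. The clones of spots 6649 to 6651, 8296 to 8298, 8602 to 8604 and 2851 to 2853 had similar centred courses, without a call for 6 hr minus earlier. That of spots 6649 to 6651 had 0.01, 2.51 and 1.11 in LA2711, and 0.72, 3.82 and 4.87 in ZS-5. The clone of spots 4417 to 4419 was alike in both genotypes at 2 hr, 3.14 in LA2711 and 3.39 in ZS-5, and on opposite sides of 0 at 6 hr, -1.77 in LA2711 and 3.02 in ZS-5 (-4.36 ± 0.78 SE, limma adjusted p = 2.04e-05). All 5 clones with opposite sides at 6 hr were among the 7. At 2 hr the LA2711 values of these 5 were positive, from 1.23 to 3.14, and the ZS-5 values ran from -1.49 to 3.39. Among them, the clones of spots 5557 to 5559 and 4795 to 4797 had nearly the same genotype differences. These were -0.56, 2.78 and -3.53 in the former and -0.54, 2.72 and -3.20 in the latter, at 30 min, 2 hr and 6 hr. Whether clones with like courses share a transcript was not tested.

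For other genes the course differed without a call. GluB (spots 9247 to 9249) had the lower ratio in LA2711 at every time, with differences of -0.96, -1.11 and -1.57 at 30 min, 2 hr and 6 hr. LOC544267 (spots 5749 to 5751) differed by -0.76, -1.65 and -2.25, and LOC543916 by -2.65, -1.40 and -1.12, with the 30 min value farthest from 0. TPX2 differed by -2.30, 0.14 and -0.92. Of the clones higher in LA2711 at 6 hr, LOC543878 (spots 6400 to 6402) differed by 0.14, 0.17 and 1.25, LOC544267 (spots 1534 to 1536) by -0.27, -0.12 and 1.31, and the unnamed clone of spots 7684 to 7686 by 0.19, -1.57 and 2.00. Nothing in the labels says whether the times shared control plants.

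**Figure D5:**
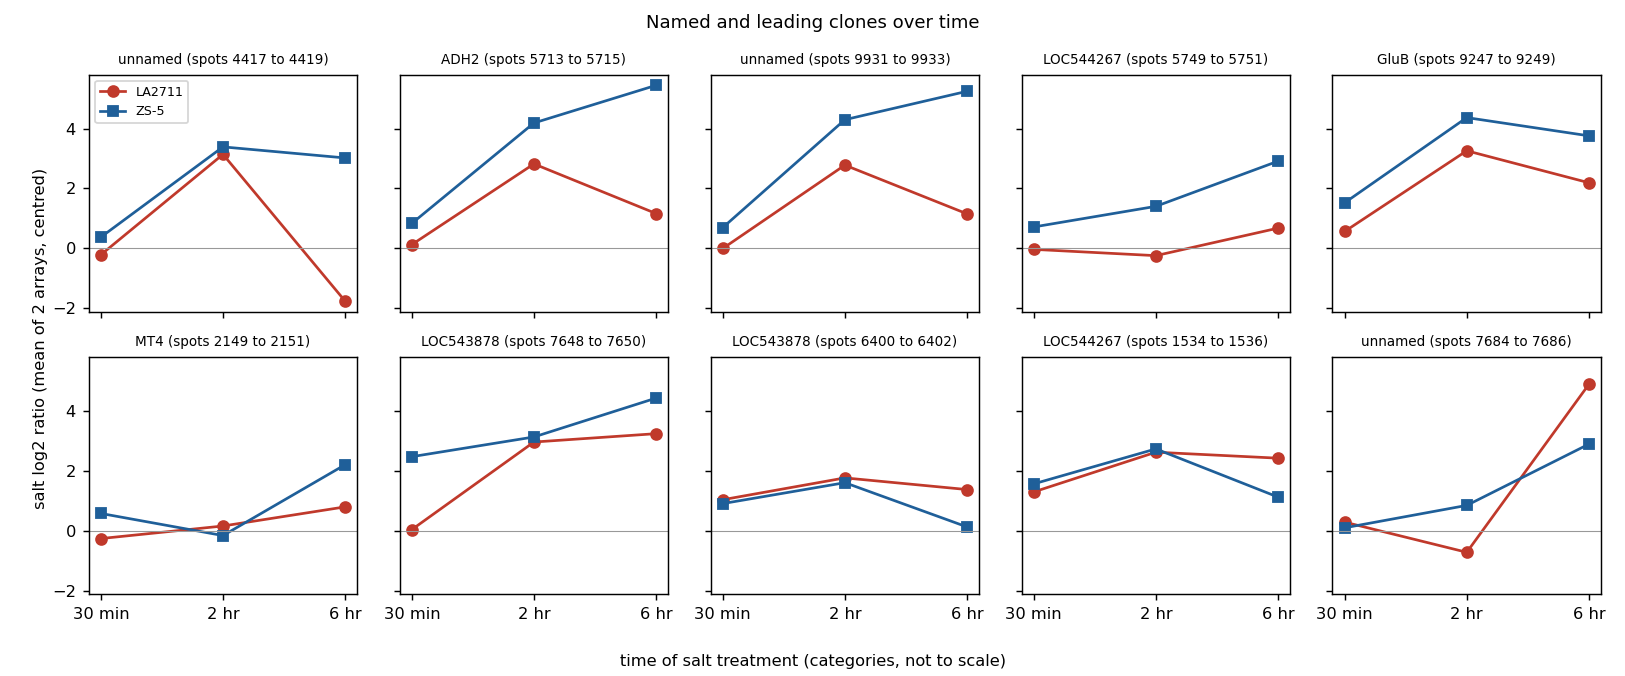
Centred salt log2 ratios at 30 min, 2 hr and 6 hr of the 7 annotated and 3 unnamed clones past 2-fold that are named in the text, in LA2711 (red circles) and ZS-5 (blue squares), each point a mean of 2 dye-swap arrays. In ADH2 and in the clone of spots 9931 to 9933 the genotypes part most at 6 hr, at 1.16 and 1.15 in LA2711 and 5.45 and 5.25 in ZS-5.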

How the data were processed

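The authors deposited spot values as log2 ratios. How images were scanned, corrected for background and normalized is not stated in the labels. Values of 9.965 or more from 0, of which the 4 arrays hold 142, were taken as ratio limits and dropped. Each clone is the mean of its 3 neighbouring spots. Centring used the array's median over clones present throughout the series (3018). Models were run in limma 3.58.1 under R 4.3.3 with Benjamini-Hochberg adjustment across those clones, after the code had been tested on simulated data. Gene symbols are those of the platform annotation, and RefSeq (assembly SLM_r2.1) held 37 of the 38 gene IDs and served for synonyms alone. Coordinates are left out for want of a stated build. Named are the annotated clones past 2-fold, the 10 annotated genes with the largest mean differences on either side, the 5 with the largest salt ratios on either side, the genes of the lists, and the 2 highest and 2 lowest unnamed clones with 3 spots on all arrays. The gene lists were made with earlier results of these data known, while the arrays were chosen by their titles. Limma's p-values rest on how conditions of this one experiment vary, part of which may be technical. Alternatives covered scaling, clone filters, spot summaries, single dye orientations and other models.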

Additional observations from a re-analysis of the deposited data

Results flagged for a closer look

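Genotype differences that passed a test are listed here. At 6 hr the salt ratio differed between LA2711 and ZS-5 in 16 clones by limma, among them the unnamed clone of spots 4417 to 4419 (-4.79), ADH2 (-4.29) and the unnamed clone of spots 9931 to 9933 (-4.10). The 6 hr difference was unlike the mean of the earlier ones in 7 clones by limma, among them the same 3, at -4.36, -3.25 and -3.00. Dye-swap pairs are too small for a search for single arrays that stand apart.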

How the results depend on the processing

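The 103 clones past 2-fold in both dye orientations became 38 at 3-fold and 174 by the mean difference alone. With only the 6 hr arrays scaled to their common median absolute deviation (added after seeing the data) they were 119, and ADH2 was -3.86. They were 51 after quantile normalisation and 17 (88.2% lower in LA2711) with all 12 arrays scaled to one median absolute deviation, under which ADH2 was -1.83. With 1 replicate left out they were 164 (without replicate 1, the arrays with treated RNA in Cy5) to 296 (without replicate 2), since 1 difference then had to pass. The limma count of 16 became 0 without centring, 0 with that scaling and 0 after quantile normalisation (66, 2 and 13 at an unadjusted p under 0.05), and 0 with 1 genotype difference for all times (196 unadjusted). With replicates of 6 hr left out it was 18 to 27. The 7 clones unlike the earlier times became 0 without centring, 0 with that scaling and 0 after quantile normalisation (29, 5 and 4 unadjusted), and 6 to 9 with replicates left out. The median standard error was 0.52 without centring, 0.94 with that scaling and 0.77 after quantile normalisation, against 0.63, and the prior degrees of freedom were 3.56, 111 and 5.15; the cause was not tested. The SD ratio of 0.938 became 1.08 with that scaling, 0.985 after quantile normalisation, 0.877 by median absolute deviations (added after seeing the data), and 0.934 to 0.948 with replicates left out. At 6 hr the replicate number is the dye orientation in both genotypes, and the dye deviations of the genotypes correlated over clones with r = 0.60. With 12 arrays as separate samples, which counts each dye-swap pair as 2 samples, a replicate block by dye orientation gave 240 clones (145 without the block) and 84 clones unlike the earlier times, and the 4 arrays of 6 hr alone with this block gave 817, against the spread between arrays only. Over 96 named or annotated clones and 11 alternatives, 786 of 1053 differences moved by less than the spread between orientations and 267 by more, and none past 2-fold changed sign. Part of the 786 was fixed in advance. Leaving out 1 orientation cannot move a difference by more than that spread, and some clone filters left the values as they were. Of the 96 differences, 75 moved by more with all 12 arrays scaled, 73 with only the 6 hr arrays scaled and 60 after quantile normalisation.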

Other observations

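At 32 positions, 324 spots apart, the sign of the ratio followed the dye and not the treatment. With the spots at the ratio limits kept, the uncentred means of these sets on the 6 hr arrays were at least 7.49 from 0, positive with treated RNA in Cy5 and negative with treated RNA in Cy3, in both genotypes. Only 6 of these sets are among the 3215 clones, 0 are annotated and 0 were past 2-fold, and the counts of 103, 16 and 7 clones were the same without them. Without them, the SD over clones of the deviation of an array from its pair's mean was 0.22 in LA2711 and 0.23 in ZS-5. One array decides the difference of the unnamed clone of spots 8527 to 8529, the highest mean difference by the naming rule: it had -2.73 and -1.94 in LA2711, against -6.08 and -2.68 in ZS-5, and was not past 2-fold in both orientations. After spots at the ratio limits were dropped, 7 clones were left with values on both LA2711 arrays and on neither ZS-5 array, 2 of them sets that followed the dye and 5 other clones, and 0 the other way round.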
